A study of Mus musculus with 21 samples.

Results

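Sox2, Mki67, Top2a, Neurod1, Neurod2, Sox4, Sox11, Igfbpl1, Dcx and Tubb2b, 10 genes that mark successive steps in the formation of neurons, were measured in whole-brain RNA of 21 SAMP8 mice. They were taken by symbol from the deposited table, which holds 1 row for each of the 10 genes among 16318 genes in all. Measured values were no part of this rule, but the genes were chosen with earlier results of these data known. SAMP8 is a senescence-accelerated mouse line that develops memory deficits without a transgene. HsTX1[R14A] is a peptide that blocks the Kv1.3 potassium channel, and 9 mice (3 female, 6 male) received it at 1 mg/kg under the skin on alternate days for 8 weeks, from 4 to 6 months of age. The other 12 mice (6 female, 6 male) received phosphate-buffered saline (PBS) by the same route. All mice were of the SAMP8 line, so no mouse of another strain or of another age served as a reference.

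In the adult mouse brain, new neurons arise mainly from stem cells that line the lateral ventricle and from stem cells in the dentate gyrus of the hippocampus. Stem cells and their dividing progeny carry the transcription factor Sox2 and, while they cycle, the proliferation antigen Mki67 and the DNA topoisomerase Top2a. Committed daughter cells switch on proneural factors such as Neurod1, then the SoxC factors Sox4 and Sox11, and young migrating neurons make the microtubule-binding protein doublecortin (Dcx) and the tubulin Tubb2b. Young neurons from the ventricular wall migrate to the olfactory bulb. Several of these genes are also used outside neurogenesis: Sox2 is made by astrocytes, Neurod1 by cerebellar granule neurons and Neurod2 by mature excitatory neurons of the cortex. In bulk tissue, fewer cells of a type and less RNA per cell cannot be told apart.

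None of the 10 genes passed the test for a difference between HsTX1[R14A] and PBS (0 of 10 at an adjusted p of at most 0.05, edgeR's quasi-likelihood test with sex as a term), while 31.6% of the 16303 genes tested did. Limma/voom and DESeq2 also called 0 of 10, against 31.9% and 37.7% of all genes. At an unadjusted p under 0.05 there were 2 of 10 by edgeR, Top2a lower and Neurod1 higher in the treated mice, against 46.4% of all genes, 1 of 10 by limma/voom and 3 of 10 by DESeq2. The values of treated and PBS mice overlapped in all 10 genes. How often other genes overlap, or have treated mice outside the PBS range, was not counted. Such counts, here and below, describe the 10 genes alone. In 4 of the 10, Mki67, Top2a, Neurod1 and Dcx, the size of the difference rested mainly on 1 mouse, which is described below for each.

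**Figure D1:**
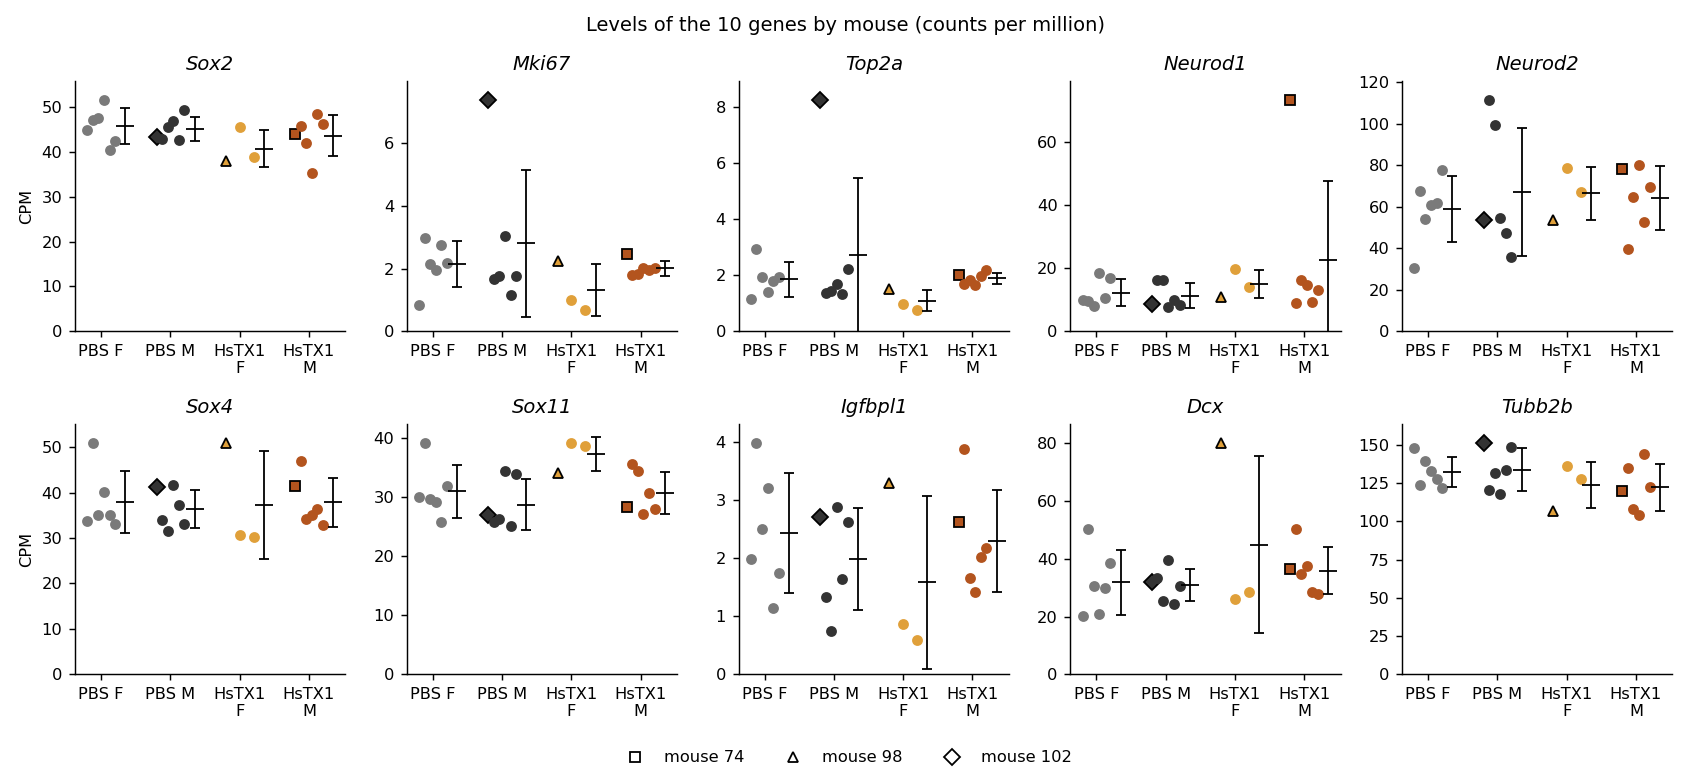
Level of each gene in each mouse, in CPM (counts per 1000000 counts, y axis from 0), in PBS females, PBS males, HsTX1[R14A] females and HsTX1[R14A] males (x axis). Bars give the mean ± SD of a group, cut off at 0 where they run below it. Mouse 102 stands above all others in Mki67 and Top2a (7.40 and 8.28 CPM), mouse 74 in Neurod1 (73.4 CPM) and mouse 98 in Dcx (80.2 CPM).

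Library totals ran from 14917174 to 47613792 counts. Treated and PBS libraries also differed in a property of the libraries themselves. The length slope, which is the slope of a library's log2 level of each gene, relative to the mean of all mice, on the log2 length of that gene's longest transcript, averaged 0.102 in the 9 treated libraries (SD 0.119) and -0.076 in the 12 PBS libraries (SD 0.161), and the difference, taken within sex, was 0.201 (exact permutation of the labels within sex, two-sided, p = 0.00631). Column names in the table take 2 forms, SAMP8 for 10 PBS and 5 treated mice and SAMP for 2 PBS and 4 treated mice. With the slope as a term in the model, or within either name form alone, edgeR called 0 of 10 members and 0 genes in all. The slope was computed from the same levels that were tested, and it differed between treatments. Fitting it can therefore remove treatment differences along with library differences, and the 0 calls cannot tell these apart. The same holds for each gene list below. Each name form alone also holds fewer mice. The part of the slope and of the name form in the results was not tested.

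Compared per kilobase of the longest transcript, levels in the PBS mice spanned a wide range. Tubb2b was highest, at 61.0 ± 5.31 CPM per kilobase (SD, n = 12), and its lowest PBS mouse lay above the highest of any other member. Sox2 followed at 22.1 ± 1.59 and Neurod2 at 20.04 ± 7.57 CPM per kilobase, with overlapping ranges. Below them came Sox4 at 7.76 ± 1.14, Neurod1 at 4.30 ± 1.47, Sox11 at 3.59 ± 0.521 and Dcx at 3.46 ± 0.938 CPM per kilobase, each overlapping the next in range. Igfbpl1, at 0.772 ± 0.329, Top2a, at 0.438 ± 0.374, and Mki67, at 0.246 ± 0.168 CPM per kilobase, were lowest, overlapped one another in that order and were separated in range from Dcx.

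The spread between PBS mice also set the members apart from one another. Sox2 and Tubb2b were among the steadiest genes of the brain, with an SD of log2 CPM of 0.10 and 0.12, a value smaller than theirs being found in 4.02% and 8.40% of the genes tested. Mki67, Top2a and Igfbpl1 were among the most variable, with an SD of 0.75, 0.74 and 0.66, and 95.2%, 94.95% and 92.4% of genes had a smaller one. The median over all genes was 0.30. Without PBS male 102 the SD was 0.38 in Top2a and 0.53 in Mki67, with 64.2% and 83.8% of genes below them, against 0.68 in Igfbpl1 and 0.40 in Dcx. Mki67 had 12 to 260 counts per mouse, Top2a 16 to 291 and Igfbpl1 17 to 145, the fewest of the members. Dcx had 287 to 2071 counts per mouse and Sox2 595 to 1915.

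Sox2 keeps stem cells in an undifferentiated, multipotent state. It lies on chromosome 3 (GRCm38 chr3:34650405-34652461, plus strand) as a single exon that overlaps the gene span of Sox2ot on the same strand. None of its 100-base windows occurred in the transcripts of another gene. PBS mice ranged from 40.4 to 51.7 CPM with a median of 45.2, and treated mice from 35.3 to 48.5 with a median of 44.0. The treated mice reached lower, 3 of 9 lying below every PBS mouse. Treated mice differed from PBS mice by a log2 fold change of -0.09 ± 0.06 (SE; 95% interval -0.22 to 0.04; adjusted p = 0.242).

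Mki67 encodes the Ki-67 protein, which coats chromosomes in dividing cells, and lies on chromosome 7 (chr7:135689784-135716361, minus strand). PBS mice ranged from 0.852 to 7.40 CPM, with a median of 2.06, and treated mice from 0.691 to 2.46, with a median of 1.97. The medians were close, and the highest value belonged to PBS male 102, whose level was followed in PBS mice by 3.05 CPM. Its log2 fold change was -0.59 ± 0.30 (95% interval -1.20 to 0.03; adjusted p = 0.126). Without mouse 102 it was -0.25 ± 0.25 (adjusted p = 0.432).

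Top2a encodes topoisomerase II alpha, which untangles DNA strands in replicating cells, and lies on chromosome 11 (chr11:98992943-99024189, minus strand). PBS mice ranged from 1.14 to 8.28 CPM, with a median of 1.73, and treated mice from 0.772 to 2.18, with a median of 1.68. Mouse 102 was again highest, and the next PBS mouse had 2.93 CPM. The fitted log2 fold change was -0.64 ± 0.30 (95% interval -1.26 to -0.02; adjusted p = 0.0979), and -0.19 ± 0.20 without mouse 102 (adjusted p = 0.460). The 3 treated females had 1.51, 0.982 and 0.772 CPM of Top2a and 2.25, 1.01 and 0.691 CPM of Mki67, so females 71 and 72, given last, lay below female 98 in both genes.

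Mki67 and Top2a moved together from mouse to mouse. After each treatment and sex group was centred on its mean, their log2 CPM correlated over the 21 mice with a Pearson r of 0.87 and a Spearman rho of 0.81, and with r = 0.79 without mouse 102. These points share their libraries, and the values are given as a description. Because the 2 genes vary as a pair, the 250 bases before their RefSeq start sites (GRCm38.p6) are shown, with CCAAT and its reverse complement ATTGG, a motif common in promoters of cell cycle genes, in capitals. The Mki67 stretch is chr7:135716380-135716629 and the Top2a stretch chr11:99024190-99024439, both on the minus strand and written 5′ to 3′.
Mki67: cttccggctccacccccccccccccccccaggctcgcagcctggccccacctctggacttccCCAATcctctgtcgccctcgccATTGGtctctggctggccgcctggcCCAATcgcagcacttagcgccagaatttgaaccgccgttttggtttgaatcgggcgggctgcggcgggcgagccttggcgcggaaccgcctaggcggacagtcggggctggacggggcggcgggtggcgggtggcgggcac
Top2a: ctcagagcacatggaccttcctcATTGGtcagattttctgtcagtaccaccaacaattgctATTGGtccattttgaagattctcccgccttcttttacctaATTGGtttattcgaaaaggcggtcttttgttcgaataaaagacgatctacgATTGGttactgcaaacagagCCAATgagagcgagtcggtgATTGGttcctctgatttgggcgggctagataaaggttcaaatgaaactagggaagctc
The Mki67 stretch holds 3 such matches and the Top2a stretch 6. Of 32851 RefSeq promoter stretches of the same length, 33.8% hold at least 1, 2.79% at least 3 and 0.0578% at least 6. Both stretches also hold 2 copies of TTTGAA or its reverse complement TTCAAA, where 16% of all stretches hold at least 1 copy and 1.81% at least 2. The Sox4 stretch holds 4 CCAAT matches and none of TTTGAA. Such a match describes letters in a window and not a bound site. RefSeq stretches were found for 8 of the 10 members, all but Igfbpl1 and Tubb2b.

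In mouse 102 other genes of dividing cells stood high as well. Of the other S phase genes measured, 12 of 17 were higher there than in every other mouse, and of the other genes of the G2 and M phases 16 of 19. A list of 20 lymphocyte genes was written after this mouse had been seen, and 8 of them were in the data. Of these, 6 of 8 were highest there, with Tcf7, a T cell transcription factor, at 22.2 CPM against at most 6.25 in the others. Lck, a T cell kinase, was at 7.86 against at most 2.34. Cd4 and Coro1a were not highest there, at 16.2 and 64.2 CPM against up to 25.5 and 69.4 in the others. The summed level of the lymphocyte list was 139 CPM in mouse 102 and between 63.0 and 102 CPM in the other 20 mice. The share of all genes that were highest in mouse 102 was not counted. The part of lymphocytes in the Mki67 and Top2a values was not tested.

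**Figure D2:**
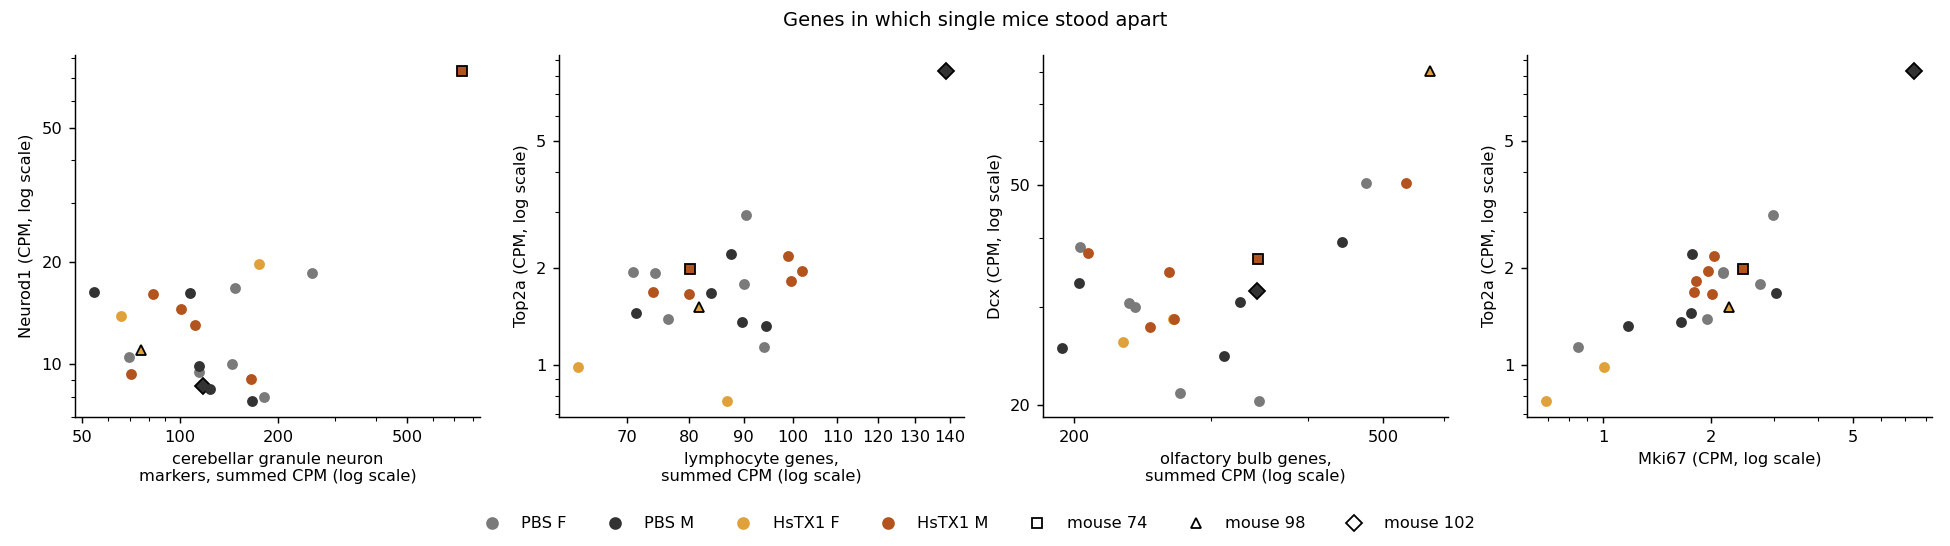
The first 3 panels plot a gene (y axis, CPM, log scale) against the summed CPM of a marker list (x axis, log scale), 1 point a mouse. They show Neurod1 against cerebellar markers (axis label: granule neuron markers), Top2a against lymphocyte genes and Dcx against olfactory bulb genes. The fourth plots Top2a against Mki67, and in each panel 1 marked mouse, 74, 102 or 98, lies at the upper right.

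Neurod1 and Neurod2 are related bHLH transcription factors that drive neuronal differentiation. Neurod1, on chromosome 2 (chr2:79452521-79456751, minus strand), ranged from 7.81 to 18.6 CPM in PBS mice, with a median of 9.96, and in treated mice from 9.07 to 73.4, with a median of 13.9. Treated male 74 held the highest value, and the next treated mouse had 19.7 CPM. In 7 of 9 treated mice the level lay above the PBS median and in 2 above every PBS mouse. The log2 fold change was 0.73 ± 0.34 (95% interval 0.03 to 1.44; adjusted p = 0.0942). Without mouse 74 it was 0.20 ± 0.19 (adjusted p = 0.414). Of the 100-base windows of the Neurod1 transcript, 3.92% also occur in transcripts of Cerkl, its neighbour on the same strand.

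Mouse 74 carried markers of the cerebellum far above the other mice. Of 10 cerebellar markers measured, not all of them specific to granule neurons, 8 were higher in it than in every other mouse. Gabra6, a GABA-A receptor subunit of granule neurons, was at 90.1 CPM there and at most 15.04 elsewhere, with a median of 0.192 over those mice, Cbln3, a synaptic protein of the same neurons, at 128 against at most 15.1, and the protocadherin-like Fat2 at 51.2 against at most 3.34. The summed list was 738 CPM in mouse 74, 65.7 to 175 CPM in the other 8 treated mice and 54.1 to 256 CPM in PBS mice, with at most 1 of the markers at 0 in any mouse. None of the 10 markers passed the treatment test, against 31.6% of all genes tested. Their log2 fold changes could have large errors, as in Gabra6 (3.80 ± 1.90) and Cbln3 (3.51 ± 1.67). The share of all genes that were highest in mouse 74 was not counted. The part of cerebellar tissue in the Neurod1 value was not tested.

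Neurod2, on chromosome 11 (chr11:98325415-98329648, minus strand), ranged from 30.7 to 112 CPM in PBS mice, with a median of 57.7, and in treated mice from 39.8 to 80.0, with a median of 66.9. Every treated mouse lay inside the PBS range. Treated mice differed from PBS mice by a log2 fold change of 0.03 ± 0.19 (95% interval -0.37 to 0.44; adjusted p = 0.907). Mouse 74 had 78.1 CPM of Neurod2, within the range of the others.

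The SoxC factors Sox4 and Sox11 act after commitment and switch on genes of the neuronal program, the tubulins and Dcx among them. Sox4, a single-exon gene on chromosome 13 (chr13:28948919-28953713, minus strand), ranged from 31.6 to 51.0 CPM in PBS mice, with a median of 35.1, and in treated mice from 30.2 to 50.9, with the same median of 35.1. Its log2 fold change was 0.02 ± 0.10 (95% interval -0.19 to 0.24; adjusted p = 0.882). Sox11, also of 1 exon, on chromosome 12 (chr12:27334264-27342574, minus strand), ranged from 25.1 to 39.2 CPM in PBS mice, with a median of 29.4, and in treated mice from 27.2 to 39.2, with a median of 34.0. The 3 treated females had 34.0, 39.2 and 38.6 CPM, and 1 of 6 PBS females, with 39.2, reached as high. The log2 fold change of Sox11 was 0.17 ± 0.08 (95% interval -0.01 to 0.34; adjusted p = 0.118), and between 0.13 and 0.20 with any 1 mouse left out.

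Igfbpl1 encodes a secreted protein related to the insulin-like growth factor binding proteins and marks neuroblasts. It lies on chromosome 4 (chr4:45809468-45826923, minus strand). PBS mice ranged from 0.749 to 3.99 CPM, with a median of 2.25, and treated mice from 0.589 to 3.88, with a median of 2.02. The treated females, at 3.29, 0.876 and 0.589 CPM, spanned nearly the whole range by themselves. Its log2 fold change was -0.11 ± 0.32 (95% interval -0.78 to 0.56; adjusted p = 0.800), one of the widest intervals among the members.

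Dcx, on the X chromosome (chrX:143855842-143933311, minus strand), encodes doublecortin, the usual marker of young neurons. PBS mice ranged from 20.4 to 50.4 CPM, with a median of 30.7, and treated mice from 25.96 to 80.2, with a median of 34.7. Treated female 98 held the highest value, the other 2 treated females had 25.96 and 28.6 CPM, and the next treated mouse, a male, had 50.3. The fitted log2 fold change was 0.33 ± 0.19 (95% interval -0.07 to 0.73; adjusted p = 0.181). Without mouse 98 it was 0.07 ± 0.16 (adjusted p = 0.764), and with the length slope as a term 0.00 ± 0.24 (adjusted p = 1.00).

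Mouse 98 was also highest of all mice in 7 of 19 genes of committed progenitors and neuroblasts and in 6 of 14 olfactory bulb genes, a list written after the values had been seen. The lists share 4 genes, and Dlx1 and Sp8, highest in this mouse, are counted in both. Of the endothelial markers 3 of 10 were also highest there, and all 10 lay above the median of the other mice. Of the astrocyte and microglia markers 0 of 12 and 0 of 10 were highest there. The library of mouse 98 had the highest length slope of all (0.234). The share of all genes that were highest in mouse 98 was not counted. The olfactory bulb list summed to 575 CPM in mouse 98. It came to 209 to 535 CPM in the other treated mice and 193 to 476 CPM in PBS mice, the highest PBS value being that of female 105, which also had the highest PBS values of Dcx (50.4 CPM), Sox4 (51.0), Igfbpl1 (3.99) and Sox11 (39.2). The share of olfactory bulb in each sample was not measured, and its part in these values was not tested.

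Tubb2b, on chromosome 13 (chr13:34126748-34130466, minus strand), encodes a beta-tubulin of growing neurites. PBS mice ranged from 118 to 151 CPM, with a median of 132, and treated mice from 104 to 144, with a median of 122. Of the treated mice, 3 of 9 lay below every PBS mouse and none above. The log2 fold change was -0.12 ± 0.07 (95% interval -0.26 to 0.03; adjusted p = 0.189). Its neighbour Tubb2a, a tubulin of mature neurons, rose from a mean of 329 to 378 CPM (log2 fold change 0.23 ± 0.08, adjusted p = 0.0364).

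These 2 tubulin genes share much of their sequence, so reads can be hard to assign between them. Over the 1335 coding bases before the stop codon, 47 positions differ (96.5% identity), the longest identical run is 551 bases, and 27.7% of the 100-base windows of the Tubb2b transcript occur in Tubb2a or in its pseudogene Tubb2a-ps2. To show how such reads can be told apart, the 60-base stretch of the second coding exon with the most differences is given, bases 64 to 123 of the coding sequence, with the 8 differing bases in capitals. It lies at chr13:34129289-34129348 in Tubb2b and chr13:34076592-34076651 in Tubb2a (GRCm38, both minus strand, written 5′ to 3′).
Tubb2b: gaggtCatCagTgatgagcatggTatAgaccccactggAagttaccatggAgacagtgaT
Tubb2a: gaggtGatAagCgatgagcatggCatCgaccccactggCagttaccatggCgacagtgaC
Reads from the long identical run carry no such base, and their split between the 2 genes is an estimate of the quantifier. Both values are uncertain to that extent. Of the 8 members besides Tubb2b and Neurod1, none had a 100-base window in another gene.

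**Figure D3:**
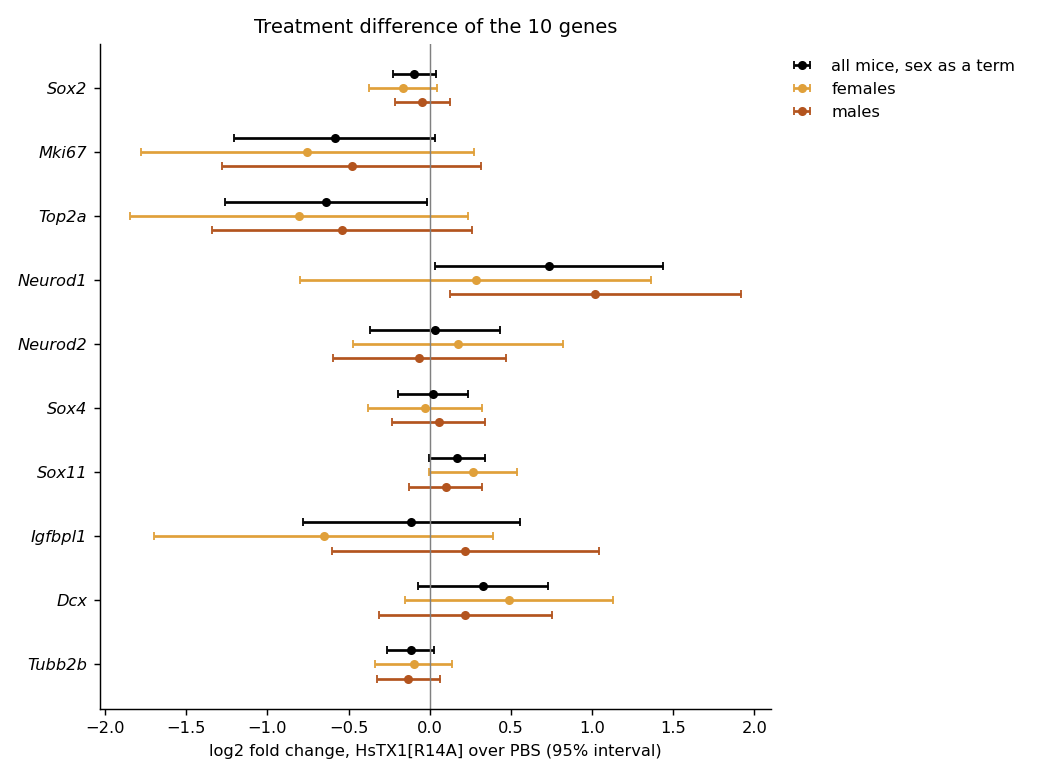
Log2 fold change, treated over PBS (x axis), of the 10 genes (rows) in all mice with sex as a term, in females and in males; bars are 95% intervals. Only Top2a and Neurod1 in all mice and Neurod1 in males have an interval that leaves out 0, and none passed after adjustment.

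Females and males were compared next. In PBS mice 0 of 10 members differed between the sexes by edgeR at an adjusted p of at most 0.05, against 0.0374% of 16039 genes, and 0 of 10 had an unadjusted p under 0.05, against 2.50% of all genes. The log2 difference of females over males in PBS mice ran from -0.56 ± 0.46 in Top2a to 0.27 ± 0.35 in Igfbpl1. The treatment by sex interaction called 0 of 10 members and 0% of the 16303 genes, with 0 of 10 and 1.66% at an unadjusted p under 0.05. The largest interactions were those of Igfbpl1, with a log2 fold change of -0.65 ± 0.50 in females and 0.22 ± 0.40 in males, and of Neurod1, with 0.28 ± 0.52 and 1.02 ± 0.43. Neither difference between the sexes passed (interaction -0.87 ± 0.64 and -0.74 ± 0.68, adjusted p = 1.00 for both), and with 3 treated females the intervals are wide.

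Within the 15 mice of the SAMP8 name form, which hold mouse 74 and neither 98 nor 102, the log2 fold changes were 1.05 ± 0.41 for Neurod1 (adjusted p = 0.0945), -0.43 ± 0.31 for Mki67, -0.33 ± 0.26 for Top2a and 0.14 ± 0.21 for Dcx. Within the 6 mice of the SAMP form they were 0.33 ± 0.23 for Neurod1, -1.32 ± 0.33 for Mki67, -1.49 ± 0.37 for Top2a and 0.51 ± 0.31 for Dcx (adjusted p = 0.855 for each). This smaller set holds mice 98 and 102, and its PBS arm has 2 mice. Mki67 and Top2a were lower and Neurod1 higher in treated mice within both forms, and none of them passed in either.

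**Figure D4:**
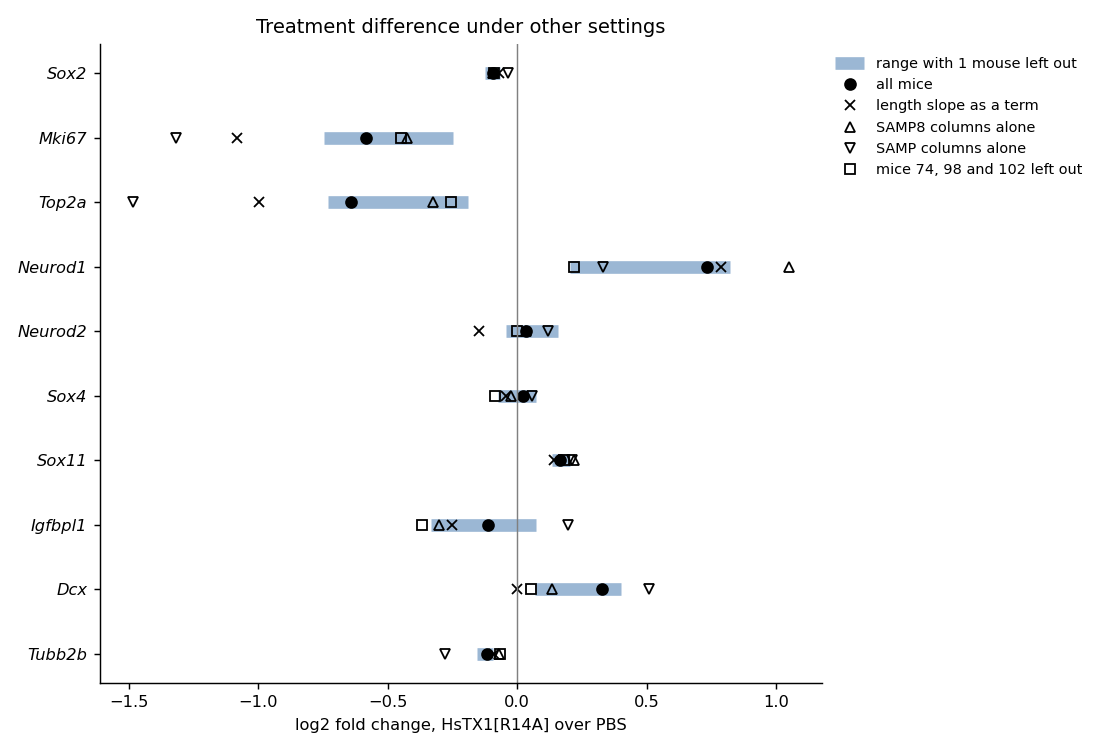
Log2 fold change, treated over PBS (x axis), of the 10 genes (rows) with all mice, as the range with 1 mouse left out at a time, with the length slope as a term, within each name form and without mice 74, 98 and 102. Neurod1 drops from 0.73 to 0.22 and Top2a moves from -0.64 to -0.25 without the 3 mice, while Sox2 and Sox11 hardly move.

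The wider groups of genes around the members gave calls in both directions. Of all genes tested, 15.5% rose and 16.1% fell, with a median log2 fold change of -0.01. Of 16 other neural stem cell genes, 1 rose and 4 fell (median 0.01). Nes, an intermediate filament of stem cells, rose from a mean of 5.32 to 7.96 CPM (log2 fold change 0.64 ± 0.24, adjusted p = 0.0470), and the RNA-binding protein gene Msi1 did not pass (0.34 ± 0.18). The fatty acid binding protein gene Fabp7 fell from 53.9 to 35.1 CPM (-0.68 ± 0.20, adjusted p = 0.0206) and Id3, an inhibitor of bHLH factors, from 24.9 to 18.6 CPM (-0.44 ± 0.12, adjusted p = 0.0199). Several of these genes are also made by astrocytes. The longest transcripts of the 4 genes that fell had 880 to 1468 bases, and that of Nes 6126, against a median of 3283.5 over all genes. With the length slope as a term, 0 genes of this list were called, as over all genes, and the part of transcript length was not tested. The counts of this list varied between settings: 0 rose and 1 fell with the name form as a covariate, and 0 rose and 2 fell without the sex term. In 15 of the 21 fits with 1 mouse left out, 0 rose, and 2 to 5 fell. Over all genes, 1259 to 3274 rose and 1030 to 3340 fell in the 21 fits, against 2526 and 2618 with all mice.

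Cell cycle genes were mostly lower in the treated mice. Of 17 S phase genes 0 rose and 4 fell (median -0.22, 13 of 17 lower), and of 19 genes of the G2 and M phases 0 rose and 7 fell (median -0.33, 18 of 19 lower). The longest transcripts had a median of 3431 bases in the S phase list and 3334 in the other, against 3283.5 over all genes. Those of the 4 S phase genes that fell had 1518 to 3900 bases, and those of the 7 others 692 to 4375. Ccne2, a cyclin of the start of S phase, fell from 8.84 to 5.96 CPM (-0.64 ± 0.17, adjusted p = 0.0172) and Pcna, the sliding clamp of replication, from 51.1 to 38.8 CPM (-0.44 ± 0.13, adjusted p = 0.0215). The chromatin protein gene Hmgb2 fell from 11.2 to 6.47 CPM (-0.89 ± 0.19, adjusted p = 0.0151) and the kinase subunit gene Cks2 from 1.40 to 0.871 CPM (-0.76 ± 0.17, adjusted p = 0.0151). Ccne1 and Ung in S phase (0.17 ± 0.08 and 0.18 ± 0.13) and the spindle gene Tpx2 (0.26 ± 0.13) had the opposite sign and did not pass. Without mouse 102, 1 gene of the G2 and M phases rose and 4 fell, and 4 of 19 were higher in the treated mice. Of the S phase genes 1 then rose and 3 fell, and 7 of 17 were higher. Without PBS male 90, 1 S phase gene fell. The number of G2 and M phase genes that fell ranged from 3 to 8 with 1 mouse left out (3 without PBS male 90, treated females 71 or 72, or treated males 74 or 88) and was 2 without mice 74, 98 and 102 together. It was 0 with the length slope as a term, as over all genes, with 18 of 19 still lower. Over all genes, 1030 to 3340 fell with 1 mouse left out, against 2618 with all mice.

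**Figure D5:**
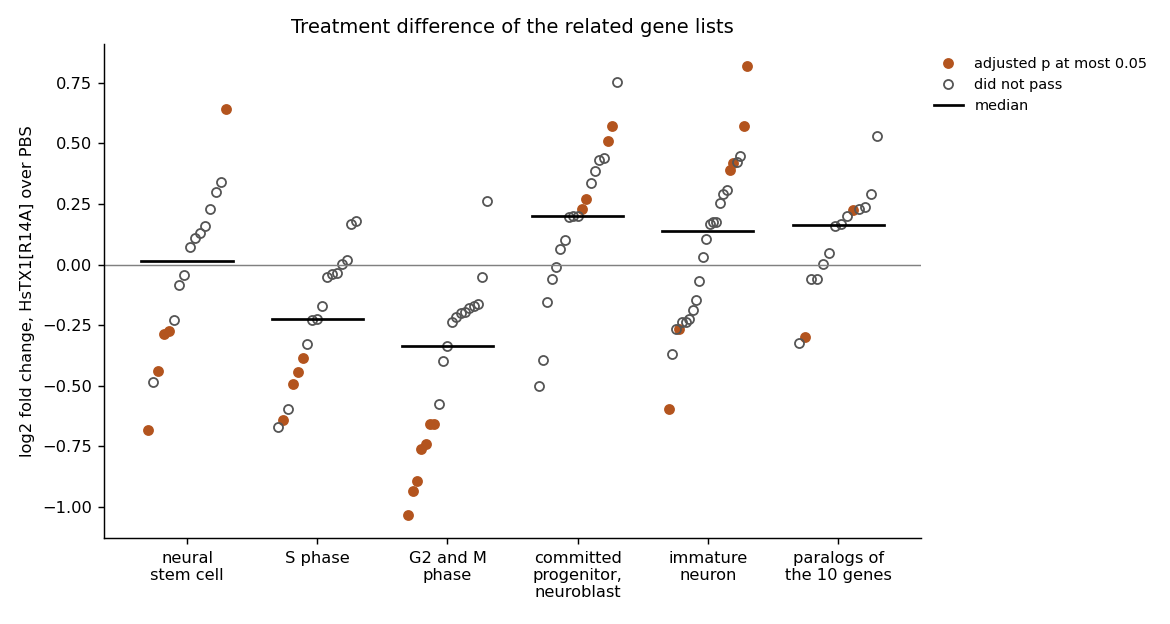
Log2 fold change, treated over PBS (y axis), of each gene, sorted within 6 gene lists (x axis); filled points passed the test at an adjusted p of at most 0.05 and lines are medians. The cell cycle lists lie mostly below 0, with medians of -0.22 and -0.33, and the neuroblast list mostly above, with a median of 0.20.

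Of 19 genes of committed progenitors and neuroblasts, 4 rose and 0 fell (median 0.20). Cdk5r1, the activator of the neuronal kinase Cdk5, rose from 240 to 279 CPM (0.23 ± 0.07, adjusted p = 0.0221), while the surface protein gene Cd24a (-0.39 ± 0.16) and the proneural gene Neurog2 (-0.50 ± 0.23) did not pass. Without mouse 98, 1 of 19 rose, as also with the name form as a covariate, and 2 rose without PBS male 90. The calls over all genes dropped in each of these settings as well. Of 24 immature neuron genes, 4 rose and 2 fell (median 0.14). The adhesion gene Ncam1 rose from 155 to 222 CPM (0.57 ± 0.16, adjusted p = 0.0186) and Crmp1, a collapsin response mediator, from 93.6 to 122 CPM (0.42 ± 0.12, adjusted p = 0.0222). Tmsb10, an actin-binding thymosin, fell from 363 to 248 CPM (-0.60 ± 0.17, adjusted p = 0.0202) and the stathmin gene Stmn4 from 199 to 171 CPM (-0.26 ± 0.09, adjusted p = 0.0307). The longest transcripts of Tmsb10 and Stmn4 had 690 and 1361 bases, and those of the 4 genes that rose 3051 to 6564. The higher calls of this list ranged from 2 (without PBS male 90 or treated male 88) to 8 (without PBS male 102) with 1 mouse left out, and with the name form as a covariate 1 rose and 1 fell. Over all genes, 1259 to 3274 rose with 1 mouse left out, against 2526 with all mice. With the length slope as a term, 0 genes of either list were called, as over all genes, which makes this no separate check on these lists.

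Some markers of the other cells of the brain also differed between treatments, and their part in the members' values was not tested. The share called was 41.7% of mature neuron, 33.3% of astrocyte and 33.3% of oligodendrocyte precursor markers. It was 40% of microglia, 30% of ependyma and 20% of endothelial markers, against 31.6% of all genes tested. With the length slope as a term, edgeR called 0 genes in all. Of 12 mature neuron markers, 5 rose and 0 fell (median 0.33), Eno2 (0.37 ± 0.10) and Nefm (0.61 ± 0.18) among them, and Snap25 (-0.12 ± 0.13) and Slc17a6 (-0.03 ± 0.27) did not pass. Of 12 astrocyte markers, 1 rose (Fgfr3, 0.32 ± 0.11) and 3 fell, Gfap (-0.59 ± 0.20) and Aldoc (-0.20 ± 0.07) among them, and Slc1a2 (0.32 ± 0.17) did not pass. With the name form as a covariate 0 astrocyte markers were called, and 0 also without PBS male 90. Of 12 oligodendrocyte precursor markers, 3 rose and 1 fell, with Tnr at 0.96 ± 0.25, Gpr17 at 0.72 ± 0.19 and Bmp4 at -0.46 ± 0.15, and Enpp6 (-0.25 ± 0.11) did not pass. Of 10 microglia markers, 0 rose and 4 fell, P2ry12 (-0.65 ± 0.14) and C1qb (-0.43 ± 0.09) among them, and Csf1r (0.28 ± 0.15) did not pass. Of 10 ependyma markers, 0 rose and 3 fell, Ccdc153 (-1.15 ± 0.28) and Pifo (-1.01 ± 0.27) among them, and Foxj1 (0.00 ± 0.18) did not pass. The longest transcripts had a median of 1139 bases in the ependyma list and 2073.5 in the microglia list, against 3283.5 over all genes. In the mature neuron, astrocyte, oligodendrocyte precursor and endothelial lists it was 3530, 4012, 4042.5 and 3909 bases. The part of transcript length in these differences was not tested. Of 10 endothelial markers, 2 rose and 0 fell, namely Flt1 (0.64 ± 0.18) and Kdr (0.54 ± 0.16), and Emcn (-0.19 ± 0.11) and Ly6c1 (0.00 ± 0.08) did not pass. Among the cerebellar markers Fat2 (3.198 ± 1.33), Cbln1 (1.03 ± 0.45), Zic4 (-0.33 ± 0.29) and Zic1 (-0.14 ± 0.33) did not pass. Of 8 lymphocyte genes, Rac2 (-0.51 ± 0.15) and Ikzf1 (-0.31 ± 0.10) fell and Coro1a (0.08 ± 0.12) did not pass. Of 14 olfactory bulb genes 0 were called, with Th (1.05 ± 0.47), Lgr5 (0.92 ± 0.41), Synpr (-0.22 ± 0.16) and Trh (-0.06 ± 0.51) nearest to it in each direction. With the name form as a covariate, 2 mature neuron, 2 oligodendrocyte precursor and 1 endothelial marker rose, and 2 microglia and 3 ependyma markers and 1 lymphocyte gene fell.

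Of 14 paralogs of the members, Tubb2a rose, a call lost with the name form as a covariate or without the sex term, and Igfbp2 fell, from 42.9 to 34.5 CPM (-0.30 ± 0.08, adjusted p = 0.0176). The other paralogs above 20 CPM, Tubb4a (0.53 ± 0.21), Tubb3 (0.17 ± 0.07), Tubb5 (0.05 ± 0.05), Dclk1 (0.29 ± 0.12), Neurod6 (-0.33 ± 0.23), Igfbp5 (0.24 ± 0.20), Sox1 (0.23 ± 0.14) and Top2b (0.00 ± 0.05), did not pass. Top2b, a topoisomerase that non-dividing cells make as well, stood at 111 CPM in PBS mice and Top2a at a mean of 2.29.

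Over the 21 mice, each member was also set beside all 14508 genes with a mean of at least 1 CPM, by Pearson's r of group-centred log2 CPM, as a description. Sox4 was most like Doc2g, Ppm1j and Shisa3 (r = 0.93 for each), and Igfbpl1 most like Dlx1 (0.92), Sp8 (0.90) and Scgn (0.84). Doc2g, Shisa3, Dlx1, Sp8 and Scgn are known for their expression in the olfactory bulb or in cells that migrate to it. Without mouse 98 the r values of Sox4 and Igfbpl1 with these neighbours stayed at 0.82 to 0.92. Doc2g, Shisa3, Dlx1, Sp8 and Scgn also belong to the olfactory bulb list, which was written after the values had been seen. Their likeness and the sums of that list are therefore not independent observations. Sox4 and Igfbpl1 also correlated with each other (r = 0.83) and Sox4 with Dcx (r = 0.75). Dcx itself was most like Pcbp3, Col24a1 and Plekhh2 (0.88, 0.87 and 0.86).

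The remaining members had other neighbours. Neurod1 was most like Etv1 (0.89), Cep76 (0.87) and Homer3 (0.85), values that were 0.78, 0.67 and 0.72 without mouse 74. Neurod2 was most like Fxyd7 (0.89), Olfm1 and Chrd (0.88 for both), and Tubb2b like Slc39a12 (0.86), Phgdh and Pygl (0.83 for both), of which Slc39a12 and Phgdh are known from astrocytes. Sox2 was most like F11r (0.82), Agtrap (0.81) and Ivd (0.80), and Sox11 had the lowest leading values, 0.77 with Scarf2, 0.76 with Smad6 and 0.75 with Itih2. Besides each other, Mki67 was most like Uhrf1 (0.87) and Polr1b (0.85) and Top2a like Wdr5 (0.90) and Tcf7 (0.85), and r with Tcf7 was 0.60 without mouse 102. Sox4 and Sox11, close relatives, were not among each other's leading genes.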

How the data were processed

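Whole-brain RNA of 21 SAMP8 mice was sequenced by the authors, 1 library per mouse. The authors aligned reads to GRCm38 with STAR and deposited expected counts (estimated by Salmon, not normalized) for 16318 genes. The labels and the methods name different library kits, and whether counting used strand is not given in the sources used here. Expected counts were rounded before testing. The deposited CPM columns and count columns of other libraries (53 in all) and the authors' fold changes and adjusted p-values were not used. Totals ran from 14917174 to 47613792 counts.

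The quasi-likelihood test of edgeR 4.0.16 (glmQLFit, then glmQLFTest, under R 4.3.3) was run on TMM-scaled counts of the 16303 genes that filterByExpr kept, with sex and treatment as terms, p-values being adjusted over all genes (Benjamini-Hochberg, threshold 0.05). Sex was tested in PBS mice and the interaction in all mice. Limma 3.58.1 with voom, DESeq2 1.42.0 and the settings below were alternatives. Log2 CPM carried a prior count of 2. The 48 pairs of mice of 1 group were checked for repeated libraries, and none differed by sampling noise alone. Fits were tested on simulated data. Gene models were GENCODE M21. Replicates were separate mice. Named were the members, the 2 genes of smallest p in each direction in every list, paralogs above 20 CPM and each member's 3 most correlated genes. A gene chosen by this rule is not reported here. Members and lists were chosen with earlier results of these data known. Genes singled out in mice 74, 98 and 102 were chosen after their values were seen, as were the lymphocyte and olfactory bulb lists.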

Additional observations from a re-analysis of the deposited data

Results flagged for a closer look

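Within the groups of 6 mice, and within the 9 treated mice together, 6 values of the 10 genes stood apart from the others of their group by Dixon's test at the 95% level, out of 40 combinations of gene and group. For independent sets of normally distributed values, chance alone would give about 1 in 20. The combinations are not independent, since treated males are also part of the 9 treated mice, and Neurod1 in mouse 74 is counted in both. The 6 values can therefore not be set against that rate. The causes were not tested.

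Mouse 102, a PBS male, stood apart in Mki67 at 7.40 CPM (others of its group 1.17 to 3.05) and in Top2a at 8.28 CPM (others 1.32 to 2.22). Mouse 74, a treated male, stood apart in Neurod1 at 73.4 CPM, both among treated males (others 9.07 to 16.1) and among all treated mice (others 9.07 to 19.7). The same mouse was set apart in Mki67 among treated males at 2.46 CPM (others 1.79 to 2.03), a level inside the PBS range. Mouse 98, a treated female, stood apart in Dcx among the treated mice at 80.2 CPM (others 25.96 to 50.3).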

How the results depend on the processing

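The count of members called by treatment was 0 under all 11 alternatives and with each of the 21 mice left out, and the lowest adjusted p among the 11 was 0.0561, for Top2a with the name form as a covariate. Members called by sex in PBS mice and by the interaction were also 0 in every setting run. No member's treatment value crossed the threshold.

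Over all genes, the treatment count of 5144 became 2984 without the sex term, 1999 with the name form as a covariate, 0 with the length slope as a covariate or within the more common or the less common name form, 2788 without mice 74, 98 and 102 (chosen after seeing the data), and 2289 (without PBS male 90) to 6614 (without treated male 93) with 1 mouse left out. Leaving out treated mice 98, 71, 88 or 81 gave 3005, 3332, 3121 and 3263. The cause was not tested.

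Uncalled treatment values changed sign for Neurod2 (-0.15) and Sox4 (-0.043) with the length slope, for Sox4 (-0.024) in the more common form and without the 3 mice (-0.084), and for Igfbpl1 (0.19) in the less common form. With 1 mouse left out, treatment values ran from -0.33 to 0.073 in Igfbpl1, -0.042 to 0.16 in Neurod2 and -0.075 to 0.071 in Sox4. Sex values in PBS mice ran from -0.14 to 0.13 in Dcx, -0.55 to 0.19 in Mki67, -0.042 to 0.26 in Neurod1, -0.33 to 0.011 in Neurod2, -0.026 to 0.045 in Sox2, -0.044 to 0.10 in Sox4, -0.73 to 0.21 in Top2a and -0.060 to 0.014 in Tubb2b. Interactions ran from -0.42 to 0.56 in Dcx, -0.86 to 0.053 in Mki67, -0.97 to 0.14 in Neurod1, -0.36 to 0.049 in Sox4 and -0.029 to 0.14 in Tubb2b.

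The length slope difference was 0.226 in protein-coding genes with at least 8 CPM and 0.200 within the more common name form. No paired analysis was possible because the labels do not give the cage, within which treatment was randomised, and each mouse number belongs to 1 mouse.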
